A study of Bubalus bubalis with 9 samples.

Results

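The genes described here are 4 genes of intermediate filaments, the keratin genes KRT8, KRT18 and KRT19 and the vimentin gene VIM, out of 20801 genes in the tables of a study of granulosa cells of Chinese buffalo (Bubalus bubalis). They were taken by their gene identifiers in the authors' 3 tables of pairwise comparisons, after repeated rows were dropped, and all 4 were found in each table. The set was chosen by measured values: KRT8 and KRT18 were selected on their higher group means in early atretic than in healthy follicles. Their values in that comparison therefore describe the choice and are not tested. The study sequenced RNA of granulosa cells from ovaries, with 3 samples from healthy follicles, 3 from early atretic follicles and 3 from late atretic follicles. No treatment, strain or age is given in the labels, and the labels do not say whether the samples of a group came from separate animals, so a deposited p-value speaks only of the spread among these samples, and that spread may be technical. For each gene the tables give 1 normalized mean per group, so values per sample, depth per library and overlap between groups are not shown here.

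Intermediate filaments are ropes of coiled-coil proteins that give a cell mechanical strength. Keratins form them only as pairs of a type I and a type II protein, and the pair typical of simple epithelia is KRT18 with KRT8, in which KRT19 can stand in as the type I partner. Vimentin is a type III protein that forms filaments of its own and is typical of mesenchymal cells. Granulosa cells line the follicle as an epithelium but are known for vimentin filaments, and keratins 8 and 18 have been described in granulosa cells of cattle. In atresia a follicle degenerates instead of ovulating.

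KRT8 and KRT18 were higher in early atretic than in healthy follicles, and their means in late atretic follicles lay between those of the other groups. VIM varied far less, and KRT19 was scarcely counted at any stage. KRT8, the type II partner, had the authors' means of 1807 normalized counts (healthy) and 10809 (early atretic) in the table that compares both. In the table of late atretic against healthy follicles its means were 6336 and 1752 normalized counts. Its order was therefore early atretic, late atretic, healthy, and neither pair of neighbours in it passed the deposited adjusted p of 0.05.

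KRT18, the type I partner of KRT8, had means of 579 (healthy) and 4232 (early atretic) normalized counts in the first of these tables. Its means in the table of late atretic against healthy follicles were 1298 and 561. The order was the same as for KRT8, but the mean for late atretic follicles lay nearer to that for healthy ones. Late atretic follicles passed that threshold for KRT18 neither against healthy nor against early atretic ones.

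KRT19, the other simple-epithelial type I keratin here, was listed at 0 in healthy follicles in both tables that hold them. Its means were 5.44 normalized counts in early atretic follicles and 2.95 in late atretic follicles. No fold against healthy follicles is given for it, since the fitted fold of a gene listed at 0 is set by the fitting method. VIM had means of 51819 (healthy) and 58613 (early atretic) normalized counts, and in the second table of 50428 (healthy) and 63444 (late atretic). The order of VIM was late atretic, early atretic, healthy, and no pair of neighbours in it passed the threshold.

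**Figure D1:**
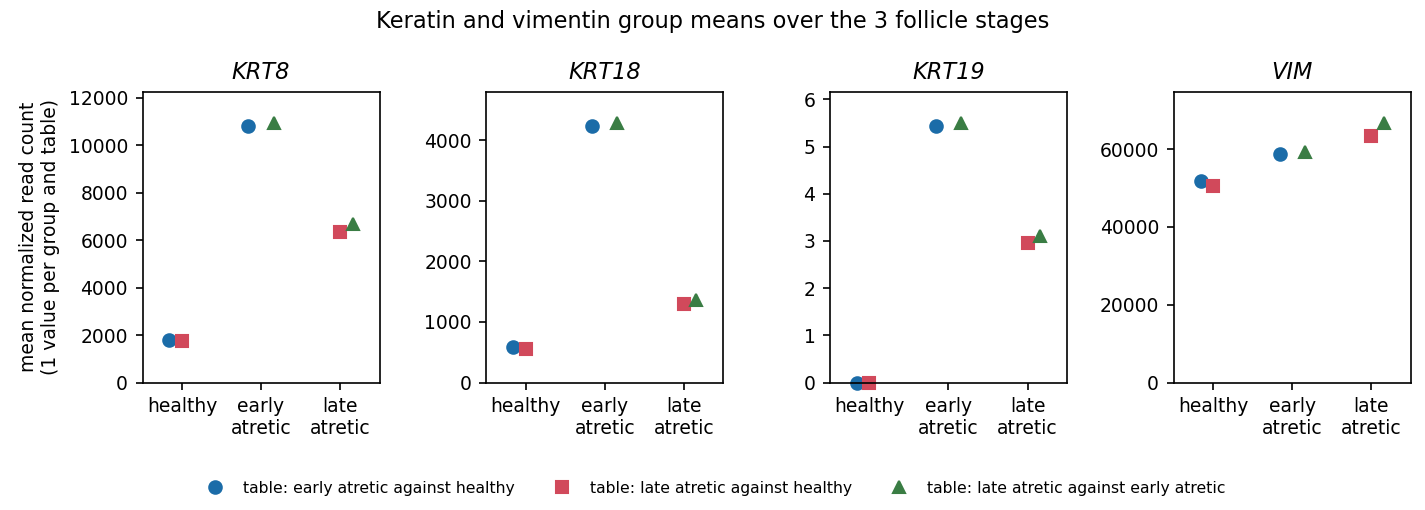
Mean normalized read count (linear axis from 0) of KRT8, KRT18, KRT19 and VIM in healthy, early atretic and late atretic follicles, 1 point per group and deposited table, with no error because the tables hold group means only. KRT8 and KRT18 are highest in early atretic follicles, at 10809 and 4232, KRT19 stays under 6 and VIM stays between 50428 and 66696 at all 3 stages.

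The authors scaled each table on its own, and the same group therefore has slightly different means in its 2 tables. KRT8 in early atretic follicles, for example, was 10809 in one table and 10933 in the other, a ratio of 0.989 that equals the median ratio over genes with a mean of at least 100. For healthy follicles the ratio was 1.03 for KRT8, KRT18 and VIM alike, and for late atretic follicles it lay between 0.950 and 0.952 for all 4 genes. Fold changes were therefore taken only within a table.

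In early atretic against healthy follicles, KRT8 had a log2 fold change of 2.58 ± 0.47 per the authors' deposited table, where ± is an implied standard error, computed from the deposited fold and its p as if a normal test with both tails had been used. This is a ratio of 5.98, with a 95% interval from 3.14 to 11.4. KRT18 had a log2 fold change of 2.87 ± 0.45 per the authors' deposited table, a ratio of 7.31 with an interval from 3.99 to 13.4. The log2 fold change of VIM was 0.18 ± 0.25 per the authors' deposited table, a ratio of 1.13 with an interval from 0.809 to 1.58. By the authors' deposited adjusted p below 0.05, KRT8 and KRT18 were called higher and KRT19 and VIM were not called, beside 12.9% of all tested genes called in either direction and 8.59% called higher. Since this contrast chose the genes, nothing is read from that count, and the folds and intervals of KRT8 and KRT18 carry the same choice.

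In late atretic against healthy follicles, which share the healthy samples with the comparison above, 0 of the 4 genes were called by the authors' deposited adjusted p, beside 4.38% of all tested genes. At an unadjusted p below 0.05 per the authors' deposited table, KRT8 was the 1 gene of the 4 that passed, beside 12.2% of all genes with a p-value. KRT8 had a log2 fold change of 1.85 ± 0.76 per the authors' deposited table, with an adjusted p of 0.195. Its ratio was 3.62 with a 95% interval from 1.28 to 10.2. KRT18 had a log2 fold change of 1.21 ± 1.21 per the authors' deposited table, with an adjusted p of 0.893, and its ratio of 2.31 had an interval from 0.445 to 12. The interval of KRT18 holds both no difference and a difference as large as that in early atretic follicles. VIM had a log2 fold change of 0.33 ± 0.30 per the authors' deposited table, with an adjusted p of 0.861 and a ratio between 0.832 and 1.90.

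Late against early atretic follicles, the direct comparison of both atretic stages, shares samples with each comparison above. Of the 4 genes, 0 were called per the authors' deposited table. Of all tested genes 0.108% were called, 0.0171% higher and 0.0912% lower. At an unadjusted p below 0.05 per the authors' deposited table, 0 of the 4 passed, beside 5.36% of all genes with a p-value. The mean of KRT8 in late atretic follicles was 61.0% of that at the early stage, with a log2 fold change of -0.71 ± 0.67 per the authors' deposited table with an adjusted p of 0.997. The mean of KRT18 was 31.8% of that at the early stage, with a log2 fold change of -1.65 ± 1.18 per the authors' deposited table with the same adjusted p of 0.997. On the log2 scale the 95% interval was from -2.02 to 0.60 for KRT8 and from -3.97 to 0.67 for KRT18. A return of either keratin toward its level in healthy follicles was thus not detectable with these errors, nor was its absence shown. The choice of both keratins on the gap between early atretic and healthy means also favours a late mean between them. VIM had a log2 fold change of 0.17 ± 0.24 per the authors' deposited table, and KRT19, with means of 3.10 and 5.50, one of -0.83 ± 1.33.

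The errors of the keratins were wide compared with those of other genes, and widest where late atretic follicles were part of the comparison. The implied error of KRT18 on the log2 scale was 0.45 between early atretic and healthy follicles, 1.21 between late atretic and healthy ones and 1.18 between both atretic stages. Among all genes with a group mean reaching 100, the median error was 0.23, 0.30 and 0.28 in the same comparisons. KRT18 had an error at or above that of 99.4% of these genes in late atretic against healthy follicles and of 92.6% in early atretic against healthy follicles. KRT8 had an error at or above that of 97.2% and 94.0% of genes, respectively. VIM was near the middle, at 52.7% and 57.2%. Which samples carry the spread is not shown by group means.

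**Figure D2:**
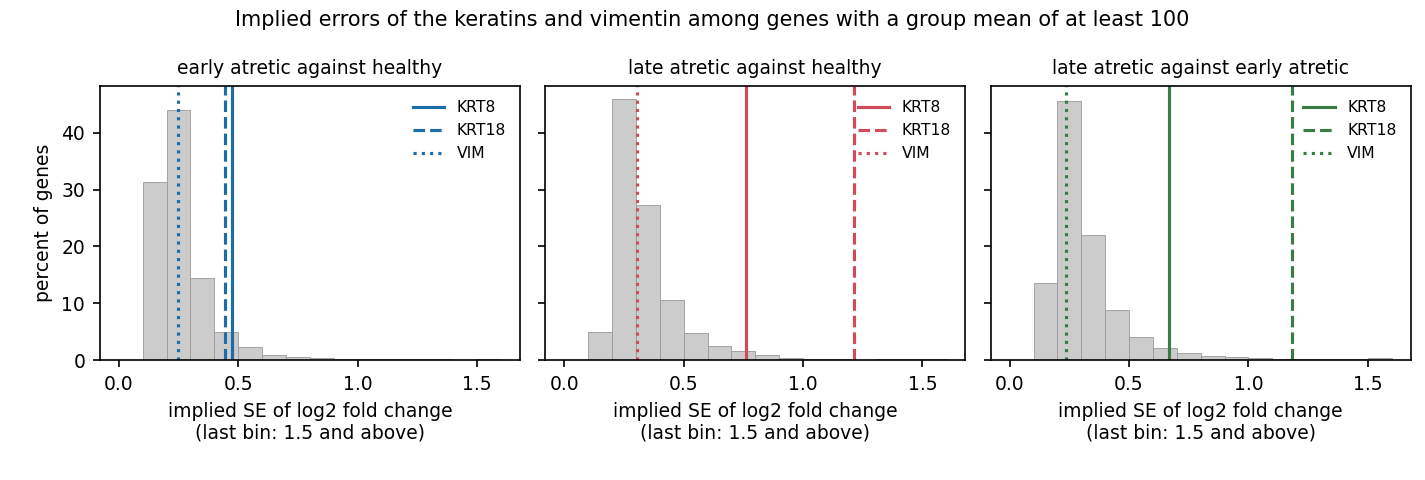
Distribution of the implied standard error of the log2 fold change over genes with a group mean of at least 100 (grey bars, percent of genes in bins of 0.1, errors of 1.5 and above in the last bin), 1 panel per comparison, with lines at KRT8, KRT18 and VIM. The line of KRT18 moves from 0.45 in the first panel to 1.21 and 1.18 in the panels that include late atretic follicles, while VIM stays at 0.25, 0.30 and 0.24.

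The ratio of KRT8 reads to KRT18 reads was 3.12 in healthy, 2.55 in early atretic and 4.88 in late atretic follicles. These are ratios of reads and not of molecules, because values per transcript length were not used here. As a difference of log2 fold changes, KRT18 exceeded KRT8 by 0.29 in early atretic against healthy follicles, and in late atretic against healthy follicles the difference had the other sign, -0.65. Both differences are smaller than the implied error of KRT18 in the same comparison and were not tested, so a change of proportion is not shown. The ratio of VIM reads to KRT18 reads was 89.5 in healthy, 13.9 in early atretic and 48.9 in late atretic follicles.

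Few other keratins were counted above a low level. Of 54 keratin genes searched by name, 38 were found in the tables, of which 16 were listed at 0 in every group and 18 stayed under a mean of 10 throughout. The 4 with a mean of at least 10 were KRT8, KRT18, KRT79 and KRT10. KRT79, a type II keratin of skin and hair follicle epithelium in the mouse, went from a mean of 7.49 (healthy) to 77.7 (early atretic) and rose by 3.36 ± 1.13 on the log2 scale per the authors' deposited table (adjusted p = 0.0267). In late atretic against healthy follicles its log2 fold change of 2.85 ± 2.54 per the authors' deposited table did not pass (adjusted p = 0.848). KRT79 reached a mean of 10 in atretic follicles only, and naming genes by that mean in any group favours genes that rose. KRT10, a type I keratin of the differentiated epidermis, had means of 87.0 in healthy, 75.5 in early atretic and 50.3 in late atretic follicles and was called in no comparison. KRT7, another type II keratin of simple epithelia, was listed at 0 in healthy and late atretic follicles and at 3.11 in early atretic follicles.

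In the gene order of the RefSeq assembly NDDB_SH_1, used here for names and order only, KRT8 and KRT18 are neighbours with 2 long noncoding RNA genes between them. KRT78 and KRT79 are the next protein-coding genes on the KRT8 side, followed by KRT4 and KRT3. On that side KRT79 was the one gene of the 5 nearest with a mean of at least 10. On the KRT18 side the 5 nearest protein-coding genes, which are not keratins, were not called in any comparison. Of all tested genes, 12.9% were called between early atretic and healthy follicles. Between late atretic and healthy ones 4.38% were called, and between both atretic stages 0.108%. With shares this low, the lack of calls among 5 genes says little about them. One of the 5, SOAT2, had means of only 1.41 (healthy), 2.09 (early atretic) and 1.93 (late atretic). EIF4B, a translation initiation factor gene next to KRT18, had means of 9677 (healthy) and 9376 (early atretic) and a log2 fold change of -0.05 per the authors' deposited table. TNS2, which encodes a focal adhesion protein, had one of 0.38, and the binding protein gene IGFBP6 one of 0.11 per the authors' deposited table.

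Among the filament genes outside the keratins, 15 of 15 searched were found and tested, and 2 were higher and 1 lower in early atretic against healthy follicles. These shares, 13.3% and 6.67%, were near those of all tested genes, 8.59% and 4.35%. NES, which encodes nestin, a large filament protein that assembles with vimentin, rose from 1086 to 3218 normalized counts, by 1.57 ± 0.53 on the log2 scale per the authors' deposited table (adjusted p = 0.0280). BFSP1, a beaded filament gene of the eye lens, was low, with means of 5.48 and 20.5, and rose by 1.89 ± 0.69 per the authors' deposited table (adjusted p = 0.0493). Like KRT79, it reached a mean of 10 in atretic follicles only, so the rule for naming genes favours its rise. SYNM, which encodes synemin, a filament protein that links vimentin and desmin to adhesion sites, went from 861 to 394 and fell by 1.13 ± 0.31 per the authors' deposited table (adjusted p = 0.00498). Both nestin and synemin need a partner such as vimentin to build filaments, and VIM itself was not called.

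The remaining filament genes passed in no comparison. The neurofilament gene NEFM had means of 463 in healthy, 1336 in early atretic and 471 in late atretic follicles, but its error was wide, with a log2 fold change of 1.53 ± 1.18 for early atretic against healthy per the authors' deposited table. DES, the muscle filament gene, had a log2 fold change of 1.04 ± 0.60 and the glial filament gene GFAP one of -1.88 ± 0.78 per the authors' deposited table. Of the nuclear lamins, LMNA had 0.53 ± 0.31, LMNB1 -0.30 ± 0.34 and LMNB2 -0.51 ± 0.34 per the authors' deposited table. In late atretic against healthy follicles, 0 of the 15 filament genes outside the keratins were called, and 4 were higher and 0 lower at an unadjusted p below 0.05 per the authors' deposited table, beside 9.20% and 2.96% of all genes with a p-value. Over those with a mean of at least 10 over both groups, the median log2 fold change from healthy follicles was 0.53 at the early and 0.07 at the late stage, beside -0.03 and a value within 0.01 of 0 over all such genes.

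**Figure D3:**
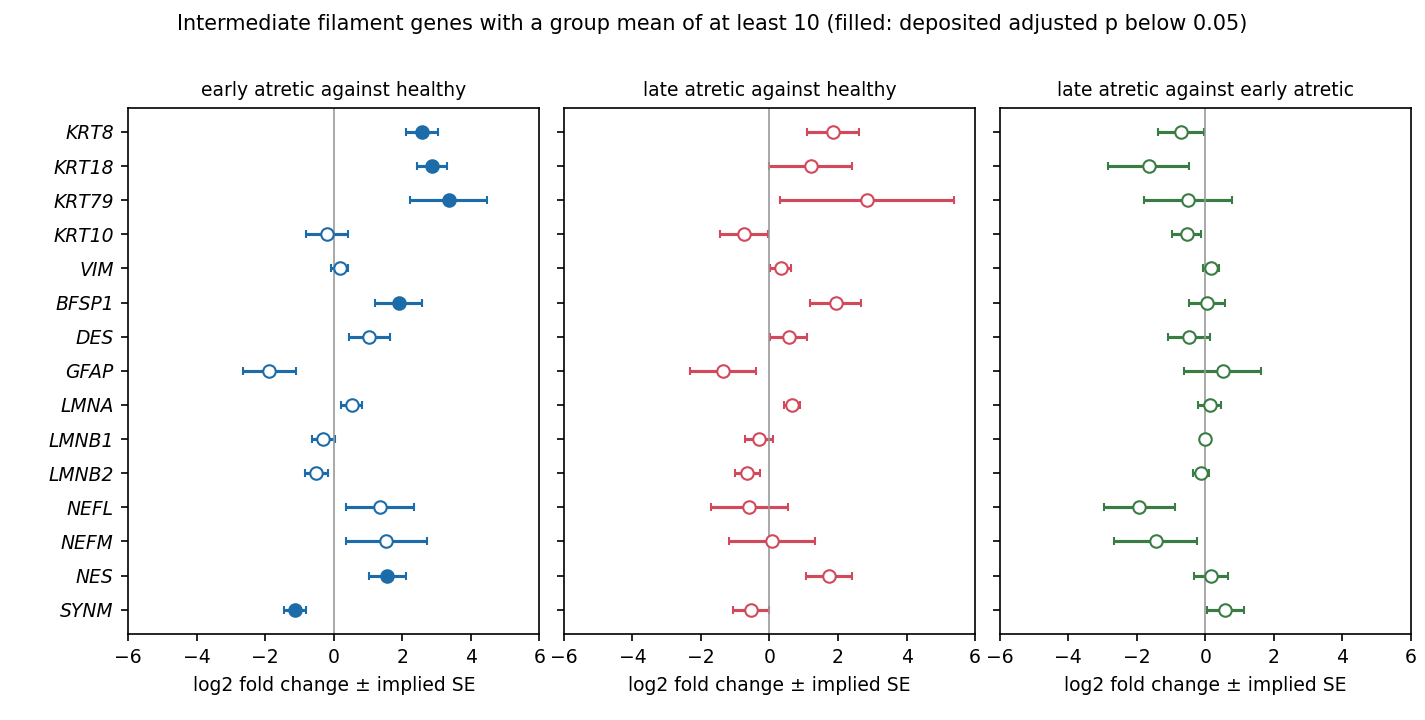
Log2 fold change with its implied standard error (bars) for the 15 keratin and other filament genes with a group mean of at least 10, 1 panel per comparison, filled where the authors' deposited adjusted p was below 0.05; LMNB1 has no implied error in the third panel. KRT8, KRT18, KRT79, NES and BFSP1 are filled to the right and SYNM to the left in the first panel, and no gene is filled in the other panels. KRT79 and BFSP1 reached a mean of 10 in atretic follicles only.

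Filaments are tied to the membrane and to each other by linker proteins. Of 18 linker and desmosome plaque genes, 1 was higher and 0 were lower in early atretic against healthy follicles, and 1 was higher and 0 lower in late atretic against healthy follicles. That 1 gene is 5.56% of the list, beside 8.59% of all tested genes called higher at the early and 3.98% at the late stage, so the list as a whole was near the background. The same gene, PLEC, was called in both comparisons, which share the healthy samples. PLEC encodes plectin, a large linker that binds keratin and vimentin filaments. Its means were 1661 in healthy, 6052 in early atretic and 5188 in late atretic follicles, and it rose by 1.86 ± 0.19 (adjusted p = 4.61e-20) and 1.68 ± 0.27 (adjusted p = 7.30e-08) on the log2 scale per the authors' deposited tables. The desmosomal linker gene DSP had means of 1.77, 12.7 and 13.5 and did not pass. JUP, which encodes plakoglobin of the desmosome and of adherens junctions, had a log2 fold change of 0.36 and EPPK1, the keratin-binding epiplakin, one of 0.25 per the authors' deposited table for early atretic against healthy follicles, and neither passed.

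Other genes of epithelia were called about as often as genes in general at the early stage. Of 30 searched, 27 were tested in early atretic against healthy follicles, of which 3 were higher and 2 lower, or 11.1% and 7.41%, near the 8.59% and 4.35% of all tested genes. Of the 27, only 15 had a mean of at least 10 over both groups. Their median log2 fold change was 0.06, beside -0.03 over all such genes. CDH1, which encodes E-cadherin of epithelial adherens junctions, rose from 50.9 to 394 normalized counts, by 2.95 ± 0.51 on the log2 scale per the authors' deposited table (adjusted p = 8.81e-07). ST14, which encodes the epithelial protease matriptase, rose by 2.53 ± 0.57 and CLDN1, a tight junction claudin gene, by 2.20 ± 0.53 per the authors' deposited table. DDR1, a collagen receptor kinase gene, fell by 0.76 ± 0.20 and LSR, which encodes a protein of tricellular junctions, by 0.51 ± 0.18 per the authors' deposited table. In late atretic against healthy follicles, 2 of 26 tested were higher and 0 lower, or 7.69% and 0%, beside 3.98% and 0.397% of all tested genes. The median log2 fold change over 15 with a mean of at least 10 was 0.58 there, beside -0.0007 over all such genes. The 2 called were CDH1, with a rise of 3.02 ± 0.83 (adjusted p = 0.0111), and ST14, with a rise of 2.24 ± 0.67 (adjusted p = 0.0242) per the authors' deposited table. CLDN1 had means of 833 in healthy, 3841 in early atretic and 1679 in late atretic follicles and was not called in the last. EPCAM, an adhesion gene of most epithelia, was listed at 0 in healthy and late atretic follicles and at 0.34 in early atretic ones. Among epithelial regulators, ESRP1 and GRHL2 stayed under a mean of 3 and OVOL1 and OVOL2 were listed at 0 throughout. Others were counted without being called: ESRP2 had means of 12.4, 37.0 and 18.7, GRHL1 of 440, 310 and 335, and KLF5 of 50.8, 48.9 and 76.4 in healthy, early and late atretic follicles.

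Of 14 mesenchymal genes and transcription factors of epithelial-mesenchymal transition, 13 were tested in early atretic against healthy follicles, and 6 were higher and 0 lower, or 46.2% and 0%, beside 8.59% and 4.35% of all tested genes. In late atretic against healthy follicles 4 of 12 were higher and 0 lower, or 33.3% and 0%, beside 3.98% and 0.397%. SNAI2, a repressor of epithelial genes, had means of 7.16, 94.8 and 133 and rose by 3.72 ± 0.77 in early and 4.25 ± 0.74 in late atretic follicles on the log2 scale per the authors' deposited tables. S100A4, a calcium-binding protein gene, rose by 3.09 ± 0.51 and 3.02 ± 0.55, and the fibronectin gene FN1 by 3.60 ± 0.81 and 4.29 ± 0.34 per the authors' deposited tables. The Wnt effector gene LEF1 and TCF4, a basic helix-loop-helix factor gene, rose by 2.37 ± 0.45 and 1.02 ± 0.33 in early atretic follicles per the authors' deposited table. CDH2, which encodes N-cadherin, the main cadherin of granulosa cells, rose by 0.65 ± 0.16 in early atretic follicles per the authors' deposited table. Its means there were 4829 (healthy) and 7595 (early atretic). PRRX1, a mesenchymal homeobox gene, rose by 1.84 ± 0.56 in late atretic follicles per the authors' deposited table. ZEB1 and ZEB2, which repress E-cadherin, were not called, with log2 fold changes of 0.12 and -0.11 in early atretic follicles per the authors' deposited table. Between late and early atretic follicles, 0 of the linker, epithelial and mesenchymal genes were called per the authors' deposited table, and at an unadjusted p below 0.05 the counts were 0, 0 and 2 higher, and 0 lower in each list, beside 2.36% higher and 3.00% lower of all genes with a p-value.

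**Figure D4:**
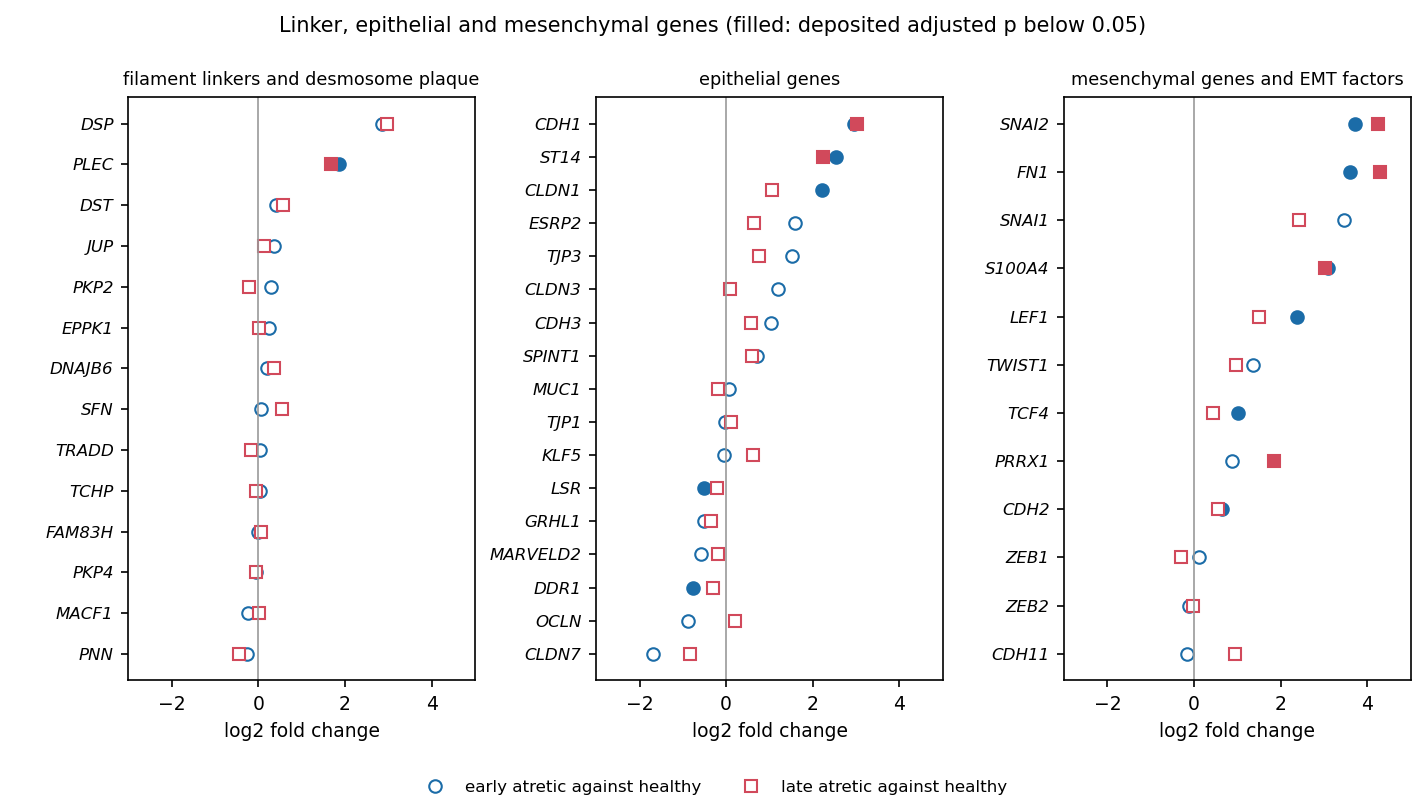
Log2 fold change of linker, epithelial and mesenchymal genes with a group mean of at least 10, in early atretic (circles) and late atretic (squares) against healthy follicles, filled where the authors' deposited adjusted p was below 0.05. CDH1 and ST14 lead the epithelial panel at 2.95 and 2.53 with filled circles and squares, PLEC is the one filled linker gene, and the mesenchymal panel holds 6 filled circles and 4 filled squares.

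Markers of other cells moved over the same stages, and in bulk samples more cells of a type and more RNA per cell cannot be told apart. The granulosa genes FSHR, FOXL2 and AMH were counted at every stage, as the label of the cells has it, although FSHR and FOXL2 were lower in early atretic follicles, with log2 fold changes of -1.16 ± 0.21 and -1.07 ± 0.36 per the authors' deposited table. The counts of called markers below stand beside 8.59% higher and 4.35% lower of all tested genes at the early stage and 3.98% and 0.397% at the late stage. In the sums that follow, late atretic values come from the table against healthy follicles and the others from that of early atretic against healthy. The summed means of 12 granulosa markers were 728197, 184499 and 326017 in healthy, early and late atretic follicles, and 8 of the 12 were lower in early and 0 in late atretic follicles. INHA and INHBA carried most of these sums, with means of 321220 and 270038 in healthy follicles, and INHBA was not called. The median log2 fold change of the 12 from healthy follicles was -1.46 at the early and -0.89 at the late stage. The sums of 10 macrophage markers were 764, 4131 and 7691 in healthy, early and late atretic follicles, with 7 of 10 higher in each atretic stage. For 10 stromal markers the sums were 3231, 16336 and 21512, with 7 higher in early and 5 in late atretic follicles. For 11 endothelial markers they were 2038, 3057 and 1785, with 2 and 1 higher. VWF carried most of these sums, and over the other 10 they were 266, 822 and 610, so the late sum lay under the healthy one through VWF. For 9 smooth muscle and pericyte markers the sums were 16663, 8410 and 10800, with 2 higher and 2 lower in early atretic follicles and 2 higher and 0 lower in late ones. Their median log2 fold change from healthy follicles was 0.91 over 9 markers at the early stage. It was -0.02 over 8 with a mean of at least 10 at the late stage. The lower early sum was thus not shared by most of these markers. For 7 neutrophil markers the sums were 513, 1812 and 707, with 2 of 4 tested higher in early and 2 of 6 in late atretic follicles. For 6 theca markers they were 5340, 3919 and 4324, with 0 higher and 1 lower in early and 0 called in late atretic follicles. For 8 oocyte markers the sums were 6.22, 7.08 and 22.3, with none called.

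Markers of the ovarian surface epithelium and mesothelium, which carry keratins of simple epithelia, were not called in any comparison. In late against early atretic follicles 7 of the 10 found stayed under a mean of 10. At an unadjusted p below 0.05 per the authors' deposited table, 2 of the 10, CALB2 and PKHD1L1, were higher there and 0 lower. Of all genes with a p-value, 2.36% were higher and 3.00% lower. The sums over the 10 markers found were 593 in healthy, 591 in early atretic and 1004 in late atretic follicles. UPK1B and PKHD1L1 carried most of each sum, and over the other 8 the sums were 61.8, 35.7 and 80.6. The members went both ways in early atretic follicles, with CALB2 going from 27.8 to 9.86 and KRT7 from 0 to 3.11. The defining marker MSLN, held under a LOC number and named in the RefSeq table, was listed at 0 in healthy follicles and at 2.21 and 2.27 in early and late atretic ones, and LRRN4 was at 0 in healthy and early atretic follicles. Macrophage and stromal sums were higher in late than in early atretic follicles, and the means of KRT8 and KRT18 were lower there. Between these stages, however, 0 of 10 macrophage and 0 of 10 stromal markers were called, beside 0.108% of all tested genes. KRT8 and KRT18 were not called there either. Neutrophil and endothelial sums were, like KRT8 and KRT18, highest in early atretic follicles. The part of other cells in the levels of the keratins was not tested.

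The genes whose pair of log2 fold changes, early and late atretic against healthy, lay nearest to that of a member were taken from 9841 candidates with a symbol, p-values in both comparisons, a mean of at least 100 and no group listed at 0. With 3 groups this likeness is a description only. The mean of 100 had to be reached in 1 group only, so a gene could enter through its atretic value alone. The genes named here and the counts within a distance of 0.5 can partly reflect that rule. Nearest to KRT8 were TSPAN15, a tetraspanin gene, PALMD, the pro-apoptotic gene BCL2L11, the collagen prolyl hydroxylase gene P3H2 and the collagen gene COL12A1, at distances from 0.05 to 0.09 on the log2 scale. TSPAN15 had means of 30.8, 190 and 106, and BCL2L11 of 64.5, 373 and 233 in healthy, early and late atretic follicles. Nearest to KRT18 were RUNX2, a transcription factor gene of bone that is also known in the ovary, TRIL, RASAL1, XIRP1 and the tight junction gene CLDN11, at distances from 0.07 to 0.25. RUNX2 had means of 589, 4159 and 1275, which are close to those of KRT18. TSPAN15, PALMD, BCL2L11 and P3H2 near KRT8, and TRIL, RASAL1 and CLDN11 near KRT18, had healthy means under 100. Within a distance of 0.5 there were 77 genes around KRT8, 18 around KRT18 and 3836 around VIM, whose nearest genes were C11H14orf119, VAMP7, NAMPT, FER and MAN2A1. KRT19 was left out because it is listed at 0 in healthy follicles.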

How the data were processed

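Granulosa cell RNA of 9 samples in 3 groups was sequenced; RNA was extracted with Trizol and per the labels' protocols the libraries followed standard Illumina procedures. The authors deposited 3 tables, one per pairwise comparison, with 21253 rows each, of which 452 were repeats and were dropped. Per the file headers each table gives a read count column per group; the values are not whole and differ between tables by a nearly constant factor, so they were taken as mean normalized counts, that is, a signal that the authors scaled table by table. Beside these the authors deposited, for each gene, their p-value, its adjusted form and the log2 fold change. Bowtie 0.12.2 and 2 mouse builds (mm8, mm9) stand, without a role, in the submitters' processing notes. Their test tool, counter and annotation were not given in the sources used here.

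The tables hold no values per sample, so depth is unknown, no test was run anew and the deposited adjusted p below 0.05 was used as the call, as the design foresaw. Columns of single samples left out numbered 0. The implied standard error is the size of the log2 fold change over the normal deviate of the deposited p with both tails, a test form that no source states; 95% intervals use it. The computation was run on simulated data made with the same normal form, which checks its arithmetic and not that form. LOC numbers were matched to names through the RefSeq gene table. Python 3.11.15, pandas 2.3.3, NumPy 2.4.6 and SciPy 1.17.1 were used.

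The members, gene lists and rules were chosen with earlier results of these data known. Named genes are the members, filament genes with a mean of at least 10, in each other list up to 5 genes with the smallest adjusted p below 0.05, defining genes, and the 5 genes nearest to each member by Euclidean distance; others named for their role were chosen after their values were seen. Alternatives were an adjusted p below 0.01, adjustment over unique genes, centring, folds through the third group, a pseudocount of 10, a mean of at least 100 and a log2 fold change of at least 1. The 16 keratin genes without a match, and ITLN1, MUC16, CD163, CYP17A1 and S100A12, were not analysed here. Reads shared between similar keratin genes may have been split by the authors' counting, which makes their values uncertain.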

Additional observations from a re-analysis of the deposited data

How the results depend on the processing

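The calls of the 4 genes were the same at an adjusted p below 0.01 and with adjustment over unique genes. The only genes called were KRT8 and KRT18 in the comparison that chose them, with a deposited adjusted p far below 0.01. Such settings could hardly change these calls, so their sameness shows no robustness. The log2 fold changes of KRT8, KRT18 and VIM were also centred on the median of all genes, taken through the third group or computed with a pseudocount of 10. In 27 of 27 such values, which carry no p, they kept their sign and moved by less than their implied error. These settings could hardly move the folds, so that count shows no robustness. The medians of all genes were -0.06, -0.03 and 0.06, and the means of these genes lie far above 10. The route through the third group uses the same group means. KRT19 was centred and taken through the third group in late against early atretic follicles only, since it is listed at 0 in healthy ones, where a ratio would be set by the pseudocount. Of 92 tested linker, filament, keratin, epithelial and mesenchymal genes, 7 were called in late atretic against healthy follicles and 4 at an adjusted p below 0.01, where 4.38% of all tested genes were called at 0.05. In early atretic against healthy follicles 18 of the 92 were called, where 12.9% of all tested genes were called. The 18 include KRT8 and KRT18, which were chosen on this comparison and raise the count, so nothing is read from it. At an adjusted p below 0.01 there were 13, with a group mean of at least 100 there were 13, and with a log2 fold change of at least 1 there were 15. The share of all tested genes under these stricter settings is not given here. These counts, and the 4 in late atretic follicles, therefore stand without a like background, and nothing is read from them. Of the 3 lower genes among the 18, 1 had a log2 fold change of at least 1 in size. Leaving out samples in turn was not run because the tables hold group means. No paired analysis was possible because the tables have no columns of single samples. Depth is unknown, so no limit is given for genes listed at 0, such as KRT19 in healthy follicles.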
